A study of Mus musculus with 8 samples.

Results

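A set of 10 genes of steroid hormone synthesis and its control were followed in mouse morulae cultured with or without A485. The genes were named for this description after results of these data were known. They were found by symbol, and 9 of the 10 were measured among 18257 genes: Nr5a1, Star, Cyp11a1, Fdx1, Fdxr, Hsd3b1, Hsd17b1, Por and Inha. Hsd3b6 was not analysed here. Polyadenylated RNA came from wild-type embryos at the morula stage, pooled 3 to a library after the zona was dissolved. The 4 control libraries were from embryos grown in KSOM medium with 0.1% DMSO and the 4 A485 libraries from embryos grown in KSOM with 2 µM A485, starting at the 4-cell stage in both groups. The labels give culture up to the blastocyst stage, while the embryos sequenced were taken as morulae. A485 is a small molecule that inhibits p300 and CBP, coactivators that acetylate histones. The age and strain of the donors, and whether pools came from separate matings or culture days, are not given in the sources used here, so the p-values measure the spread between these pools. The question asked of the comparison is which transcripts differ when p300/CBP is inhibited.

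Steroid synthesis starts when the StAR protein, encoded by Star, brings cholesterol to the inner mitochondrial membrane. There the enzyme encoded by Cyp11a1 cleaves the cholesterol side chain to make pregnenolone, with electrons passed from ferredoxin reductase (Fdxr) through ferredoxin (Fdx1). A 3-beta-hydroxysteroid dehydrogenase of the Hsd3b family then makes progesterone, and Hsd17b1 converts estrone to estradiol. Por encodes the reductase that feeds electrons to the P450 enzymes of the endoplasmic reticulum. Nr5a1 encodes steroidogenic factor 1, a nuclear receptor that activates many of these genes in the adrenal gland and gonads, and Inha encodes the alpha subunit of inhibin, a gonadal hormone. In the mouse, both ovarian follicle cells and trophoblast giant cells of the placenta are known to express steroidogenic enzymes.

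The working description of the set, genes that rise from near absence, held for 4 of the 9 genes measured. Cyp11a1, Nr5a1, Inha and Hsd3b1 had at most 4 counts over the whole control group and were present in A485 libraries. Star was low in both groups. Fdx1, Fdxr and Por were already expressed in control embryos, and Fdx1 and Hsd17b1 were lower with A485. All of these are values from the contrast that the genes were chosen on, so they are given as a description without p-values. Of the 9 genes, 7 passed the filter on low counts and were part of the fit across 12936 genes. By edgeR's quasi-likelihood test at an adjusted p of 0.05, counts that the choice of the genes partly fixes and from which nothing is read, 4 of the 7 were higher in A485 (29.7% of all genes tested were) and 2 were lower (25.0% of all genes were). The test's p-values were adjusted over all genes (Benjamini-Hochberg), and a positive log2 fold change means more in A485. CPM below are counts relative to library size scaled by TMM factors, and TPM are the authors' values that also divide by transcript length, used to compare genes. All A485 libraries lay above all control libraries for 4 of these 7 genes (26.9% of all genes tested) and below them for 1 (24.6%), which the same choice bears on.

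Total estimated counts were 23641781 to 25677701 per library. Replicate pairs differed by more than sampling noise, with a chi-square per degree of freedom of 20.6 to 36.7 between control libraries and 65.6 to 228.6 between A485 libraries, so A485 libraries varied more. Pou5f1 and Nanog, factors of pluripotent embryonic cells, were present in all 8 libraries and fell with A485 (log2 fold changes -1.53 and -3.19), every A485 library being below every control. Of 13 morula genes tested 0 rose and 11 fell (84.6%, against 25.0% of all genes). With libraries scaled by total counts, 4930 genes were higher and 2300 lower, against 3839 and 3238 with TMM factors, which moved the median over all genes from 0.09 to 0.37 on the log2 scale. In these pools fewer cells of a type and less RNA per cell cannot be told apart.

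Promoter windows are shown for the 3 genes among the near-absent ones that RefSeq's promoter table for GRCm38.p6 holds, since these genes went from at most 4 counts over the control group to being present in at least 3 A485 libraries. Each window runs from 250 bases before a start site to 50 after it, 5′ to 3′ on the gene's strand. Capitals mark TCAAGG on either strand, the core of the element that NR5A receptors bind. This core was chosen as a search term after the sequences were seen.
Cyp11a1 outer start: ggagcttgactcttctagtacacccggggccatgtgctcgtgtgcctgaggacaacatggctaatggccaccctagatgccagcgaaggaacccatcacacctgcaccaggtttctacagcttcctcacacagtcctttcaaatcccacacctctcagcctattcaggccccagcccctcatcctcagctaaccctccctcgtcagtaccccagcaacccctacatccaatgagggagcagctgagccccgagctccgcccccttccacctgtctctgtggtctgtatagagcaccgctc
Cyp11a1 inner start: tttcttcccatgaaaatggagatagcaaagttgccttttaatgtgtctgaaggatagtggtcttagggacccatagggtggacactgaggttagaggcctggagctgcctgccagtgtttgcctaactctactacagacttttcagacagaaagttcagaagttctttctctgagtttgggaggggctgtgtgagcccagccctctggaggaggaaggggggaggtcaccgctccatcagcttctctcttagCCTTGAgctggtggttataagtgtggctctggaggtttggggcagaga
Hsd3b1: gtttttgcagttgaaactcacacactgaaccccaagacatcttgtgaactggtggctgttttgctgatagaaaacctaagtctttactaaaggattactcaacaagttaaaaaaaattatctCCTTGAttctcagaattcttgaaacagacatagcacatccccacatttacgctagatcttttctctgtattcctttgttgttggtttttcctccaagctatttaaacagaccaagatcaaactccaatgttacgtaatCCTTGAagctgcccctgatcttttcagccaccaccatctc
Inha: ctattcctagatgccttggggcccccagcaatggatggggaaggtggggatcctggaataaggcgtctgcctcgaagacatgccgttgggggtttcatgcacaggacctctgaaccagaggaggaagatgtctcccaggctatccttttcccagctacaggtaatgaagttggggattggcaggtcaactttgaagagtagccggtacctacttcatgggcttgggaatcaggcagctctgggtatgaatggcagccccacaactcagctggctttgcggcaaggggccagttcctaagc
The Cyp11a1 windows lie at chr9:57997774-57998073, at the start of the gene as deposited, and at chr9:58014702-58015001, inside it, both on the plus strand, the Hsd3b1 window at chr3:98859745-98860044 on the minus strand and the Inha window at chr1:75507359-75507658 on the plus strand. TCAAGG was not among the letters of the outer Cyp11a1 window and occurred once in the inner one, on the opposite strand and 3 bases after the start site, and at 2 places in the Hsd3b1 window, at -128 and 11 from the start site. It was not among the letters of the Inha window. That window lies inside the gene as deposited (75507077 to 75510366), so bases before the deposited start of Inha were not searched. Of the 8 windows held for 7 of the 10 genes (Cyp11a1 has 2), 3 contained it, in Cyp11a1, Fdx1 and Hsd3b1, against 14.4% of 32851 windows of the same length. The longer form CAAGGTC occurred in 0 of the 8 windows (3.96% of all windows) and CAAGGCC in 1, that of Fdxr (6.19%). Both overlap the core by 5 bases. Nr5a1, Star and Hsd17b1 had no entry in the table.

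Nr5a1, the regulator of the set (chromosome 2, 38692656 to 38720639 in GRCm38.p6), had 4, 0, 0 and 0 counts in control replicates 1 to 4 and 8, 49, 112 and 61 in A485 replicates 1 to 4. All 4 A485 libraries were above all controls, and A485 replicate 1, with 8 counts, was close to control replicate 1. Divided by TMM-scaled library sizes, the A485 total of 230 counts was 48.1 times the control total of 4 (95% exact counting interval 18.5 to 178), an interval that covers counting error only. Nr5a1 did not pass the filter on low counts. Fitted without a filter, its log2 fold change was 5.31, and without control replicate 1, which held all 4 control counts, it was 8.68. The related receptor gene Nr5a2, whose product binds the same DNA element and acts in early embryos, went the other way, from 953 to 1356 counts in controls to 362 to 1077 with A485, and fell (log2 fold change -1.01 ± 0.32, SE; edgeR adjusted p = 0.022). Leaving out control replicate 1, control replicate 2 or A485 replicate 4 ended this call (edgeR adjusted p between 0.0506 and 0.0606). In length-scaled units Nr5a1 reached 0.12 to 1.80 TPM in A485 libraries.

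Cyp11a1, the side-chain cleavage enzyme (chromosome 9, 57998024 to 58027031), had 0, 0, 0 and 4 counts in the controls and 44, 322, 820 and 518 with A485. The groups did not overlap, and the A485 libraries themselves spread from 1.81 to 27.9 CPM. The group means were 0.0464 ± 0.0928 CPM in control and 15.2 ± 11.1 CPM in A485 (SD, n = 4 per group). The ratio of the group totals was 356 (95% exact counting interval 139 to 1309). The fitted log2 fold change was 8.26 ± 1.15 (SE), or 11.6 without control replicate 4, which held every control count, and it was 7.10 without A485 replicates 3 and 4. Per length, Cyp11a1 was the highest of the 4 genes near absent in control, with a mean of 11.0 TPM in A485 against 1.30 for Inha, 1.07 for Hsd3b1 and 0.91 for Nr5a1. In A485 replicate 1 this order did not hold, with 1.10 TPM for Cyp11a1, 1.77 for Inha and 1.46 for Hsd3b1.

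Star, which supplies the cholesterol for that reaction (chromosome 8, 25808474 to 25815982), had 9, 4, 9 and 12 counts in the controls and 31, 25, 61 and 17 with A485. All A485 libraries were above all controls, but the lowest, replicate 4 with 17 counts, was near control replicate 4 with 12. Means were 0.377 ± 0.154 and 1.22 ± 0.627 CPM (SD, n = 4 per group), a log2 fold change of 1.69 ± 0.53 (SE). The edgeR call ended when control replicate 1, 2 or 3 was left out and when A485 replicate 3 was, where the log2 fold change was 1.30. Star stayed below 1 TPM in every library, with at most 0.70 TPM. The neighbouring gene Ash2l lies 17 bases from Star and had 7469 to 8944 counts in controls and 5997 to 9649 with A485. Whether reads from Ash2l entered the Star counts was not tested.

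The mitochondrial electron carriers of the pathway were expressed in both groups. Fdx1 (chromosome 9, 51943023 to 51963602) had 118, 127, 90.5 and 118 CPM in the controls and 105, 59.6, 67.3 and 60.2 CPM with A485. The groups overlapped through A485 replicate 1, and the log2 fold change was -0.63 ± 0.20 (SE). It was -0.87 without A485 replicate 1 and -0.36 with total-count scaling, where the edgeR call was lost. It also ended when control replicate 2 or 4 or A485 replicate 2 or 4 was left out. Fdxr (chromosome 11, 115268024 to 115277101) had 5.51, 4.24, 6.17 and 7.56 CPM in the controls and 5.87, 4.65, 8.68 and 9.09 CPM with A485. The groups overlapped, A485 replicates 3 and 4 being above every control and replicates 1 and 2 within the control range, and the log2 fold change of 0.27 ± 0.28 (SE) turned to -0.16 without A485 replicates 3 and 4. In length-scaled units Fdx1 was far more abundant than Cyp11a1, with means of 102 TPM in control and 79.9 TPM in A485.

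Por, the P450 reductase of the endoplasmic reticulum (chromosome 5, 135653810 to 135735326), was steady in control libraries at 119, 114, 118 and 120 CPM. With A485 it was 160, 156, 270 and 304 CPM. Every A485 library was above every control, and replicates 3 and 4 were well above replicates 1 and 2. The log2 fold change was 0.92 ± 0.22 (SE), and 0.43 without replicates 3 and 4.

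Of the 3-beta-hydroxysteroid dehydrogenases, Hsd3b1 (chromosome 3, 98842356 to 98859794) had 0 counts in all 4 control libraries and 52, 44, 50 and 0 counts in the A485 libraries. It was therefore present at a like level in 3 of the 4 A485 libraries and not detected in replicate 4, where a count of 0 allows up to 3 counts, or 0.111 CPM. Against a floor of 3 counts over the control group, the A485 total of Hsd3b1 was 40.7-fold higher. The lower limit of the 95% exact counting interval was 32.7-fold. That interval pools the libraries of each group and covers the counting error of both groups only, not the spread between libraries. Hsd3b1 did not pass the filter on low counts. The coding sequence of Hsd3b1 is 90.0% identical to that of Hsd3b6 and 89.3% to those of Hsd3b2 and Hsd3b3 in GENCODE transcripts, with identical runs of up to 72 bases, so reads can be shared between these copies and the Hsd3b1 count is uncertain. Its deposited estimates were whole numbers in all 8 libraries. Hsd3b2 had 6 counts, all in A485 replicate 2, and Hsd3b3 had 1 count, in control replicate 3. Hsd3b7, which acts in bile acid synthesis and is 53.7% identical to Hsd3b1, went from 31 to 113 counts in control libraries to 490 to 1623 with A485, a rise of 3.68 ± 0.43 on the log2 scale (SE; edgeR adjusted p = 0.000101).

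Hsd17b1 (chromosome 11, 101077968 to 101081188) went the other way from Cyp11a1 and Hsd3b1. It had 7.22, 2.44, 9.46 and 9.05 CPM in the controls and 1.93, 0.732, 1.46 and 0.148 CPM with A485. All A485 libraries were below all controls, with A485 replicate 4 at 4 counts, and the log2 fold change was -2.72 ± 0.65 (SE). The gene Naglu lies 295 bases from Hsd17b1 and rose, from 0 to 14 counts in controls to 20 to 102 with A485 (log2 fold change 3.15, edgeR adjusted p = 0.0154). Hsd17b12, a related enzyme of fatty acid elongation, fell too (log2 fold change -1.17 ± 0.17, SE; edgeR adjusted p = 0.000283).

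Inha (chromosome 1, 75507077 to 75510366) had 0 counts in every control library and 55, 38, 40 and 22 with A485. The groups did not overlap. Against a floor of 3 counts over the control group, the A485 total of Inha was 43.2-fold higher. The lower limit by the 95% exact counting interval, which covers counting error only, was 34.7-fold. The mean of Inha in A485 was 1.46 ± 0.597 CPM (SD, n = 4). Obsl1, which lies 590 bases from Inha, rose as well, from 5 to 35 counts in controls to 139 to 357 with A485 (log2 fold change 3.44, edgeR adjusted p = 0.000538). Inhba, the beta A subunit that pairs with Inha in inhibin A, had 0 counts in every control library and 14, 10, 11 and 0 with A485, so it was not detected in replicate 4, where Hsd3b1 was also at 0. Inhbb, the beta B subunit, rose from 4 to 9 counts to 12 to 30 (log2 fold change 1.71 ± 0.50, SE; edgeR adjusted p = 0.0144). This call ended in 3 of 18 alternatives. They were leaving out control replicate 3 (edgeR adjusted p = 0.0525), blocking on replicate number (0.0557) and leaving out A485 replicates 3 and 4 (0.0754). Of 12 other inhibin and activin genes tested, 4 rose, 1 fell and 7 did not pass (33.3% and 8.33%, against 29.7% and 25.0% of all genes), with a median log2 fold change of 0.14 against 0.09 for all genes. Tgfbr3, the coreceptor betaglycan that binds inhibin, had the largest change of these, from 1 or 2 counts in each control to 21 to 92 with A485 (log2 fold change 5.05 ± 0.64, SE; edgeR adjusted p = 0.000147).

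**Figure D1:**
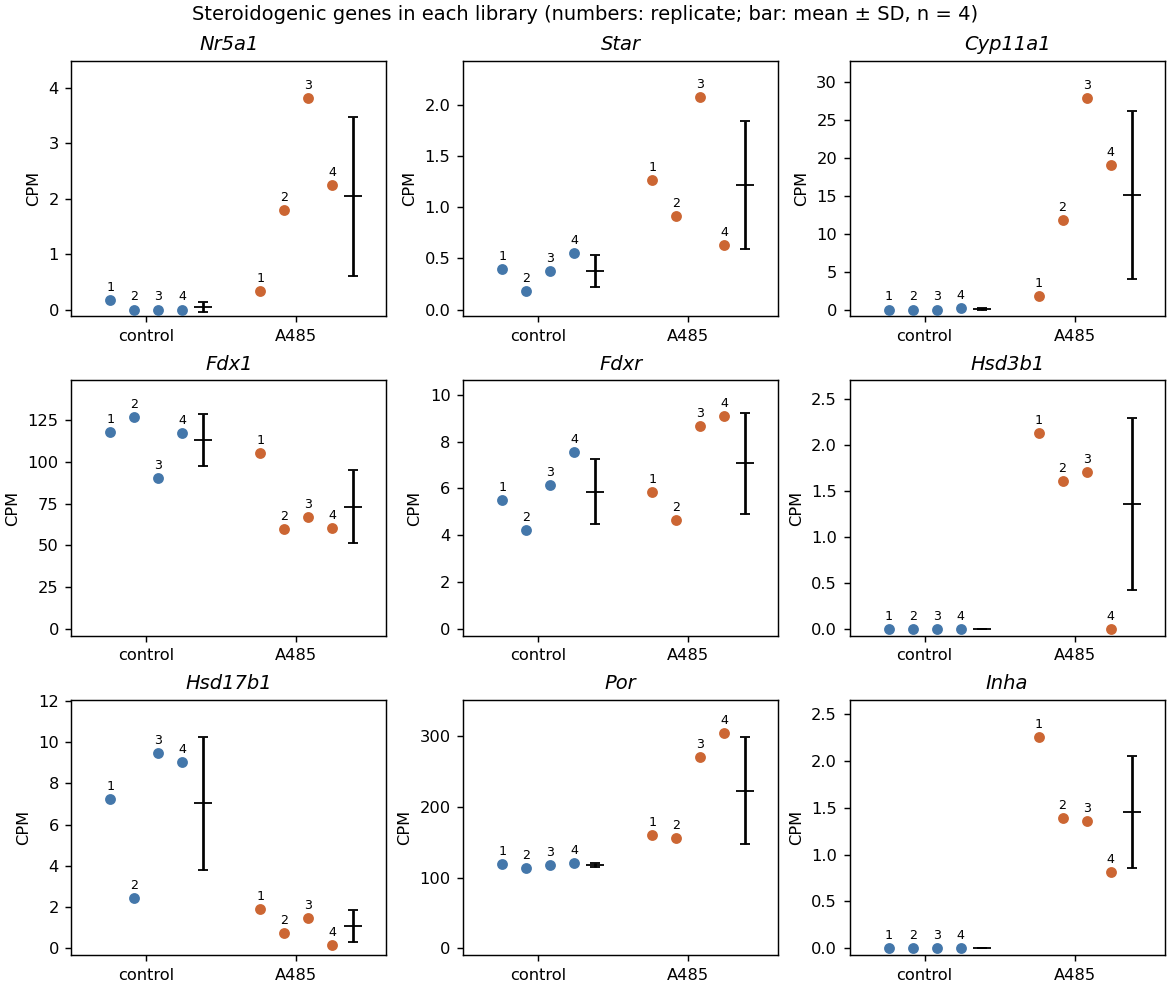
CPM (TMM-scaled) of the 9 measured genes in each of 4 control and 4 A485 libraries; points carry the replicate number and bars give the mean ± SD. Cyp11a1, Nr5a1, Inha and Hsd3b1 lie at or near 0 in control, Hsd3b1 is also at 0 in A485 replicate 4, and Hsd17b1 is lower in every A485 library.

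The genes of the set did not share one order among the A485 libraries. Nr5a1 and Cyp11a1 were both highest in replicate 3, then 4, then 2, and lowest in replicate 1. The count of Cyp11a1 was 5.50, 6.57, 7.32 and 8.49 times that of Nr5a1 in A485 replicates 1 to 4, while the Cyp11a1 counts themselves ran from 44 to 820. Por and Fdxr were also higher in replicates 3 and 4 than in replicates 1 and 2. Inha and Hsd3b1 were instead highest in replicate 1 and lowest in replicate 4, as was Hsd17b1. The count of Cyp11a1 was 0.80 times that of Inha in replicate 1 and 23.55 times in replicate 4. With 4 libraries these orders are a description, and no correlation was computed.

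**Figure D2:**
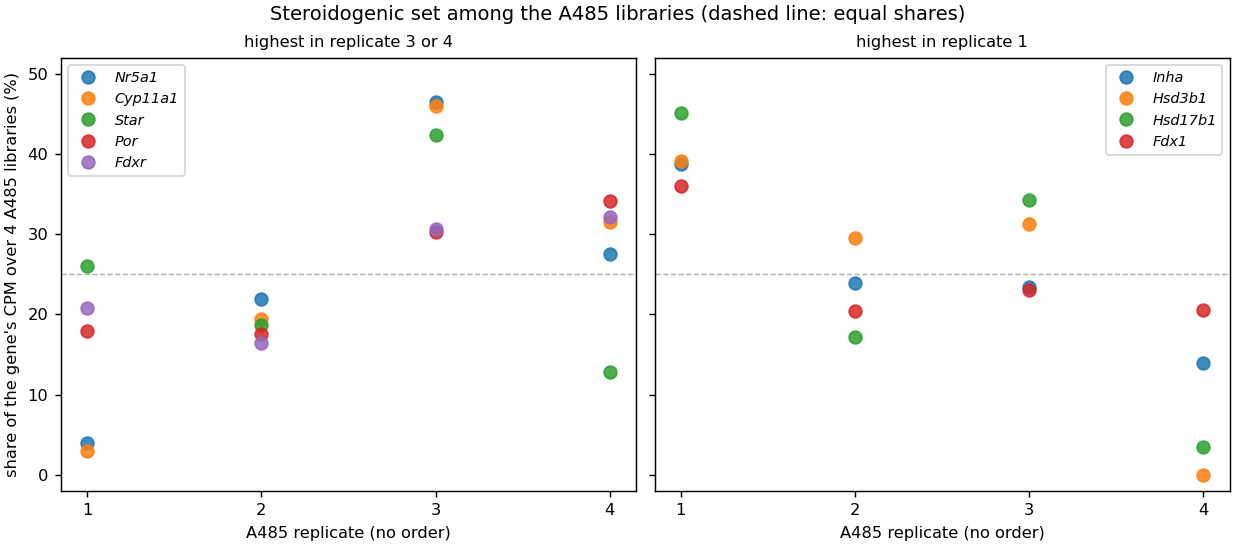
Share of each gene's summed A485 CPM (%) in each of the 4 A485 libraries; the dashed line is the share if all were equal. Cyp11a1 had 2.98% of its total in replicate 1 and 46.0% in replicate 3, whereas Inha had 38.8% in replicate 1 and 14.0% in replicate 4.

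The 5 tested genes whose profile over the 8 libraries was nearest to that of Cyp11a1 were Klk8, Csf1, Fam20c, Rassf6 and Depp1. Likeness was the root mean square difference of log2 CPM after centring each gene on its mean, 0.63 for Klk8 and 0.81 for Depp1. Klk8, a secreted serine protease gene, had 2.55, 4.72, 22.0 and 16.0 CPM in the A485 libraries. Csf1, encoding macrophage colony-stimulating factor, had 2.63, 6.04, 9.43 and 15.6 CPM there. Both were at or below 0.139 CPM in every control library, and both share with Cyp11a1 a low value in A485 replicate 1. The choice by likeness to Cyp11a1 over these libraries largely fixes both traits, so nothing is read from them. Among the 6 other tested genes of the set Inha was nearest, at rank 405 (1.89). Nr5a1 and Hsd3b1 were not tested and so not ranked.

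Other genes of the pathway were read from lists of 108 steroid enzymes, electron carriers, cholesterol suppliers and regulators, of which 95 were found and 68 tested. In A485, 29 rose, 17 fell and 22 did not pass, or 42.6% higher and 25.0% lower against 29.7% and 25.0% of all genes. The median log2 fold change was 0.44 against 0.09. With the stricter filter of 5 CPM in 4 libraries, 18 rose and 13 fell, where 2526 of all 8194 genes tested rose and 2369 fell. How many list genes passed that filter is not given here, so nothing is read from the 18 and the 13.

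The genes Cyp19a1, Cyp21a1 and Cyp17a1, for enzymes of later steps of steroid synthesis, were low in both groups. Cyp19a1, the aromatase, had 0 counts in every control and 2, 0, 1 and 0 with A485. Cyp21a1 had at most 6 counts in any library, and Cyp17a1, the 17-hydroxylase, had 4 to 28 counts in control and 2 to 20 with A485 (log2 fold change -1.17 ± 0.76, SE; edgeR adjusted p = 0.21). Without A485 replicates 1 and 2 the Cyp17a1 value was -2.68 (edgeR adjusted p = 0.034). Of 15 steroid enzymes tested 5 rose, 4 fell and 6 did not pass (33.3% and 26.7%), shares near the 29.7% and 25.0% of all genes. The genes that rose, with Hsd3b7 above, include Cyp7b1, Srd5a1 and Srd5a3. Cyp7b1, the oxysterol 7-alpha-hydroxylase, had 0 counts in every control and 56, 62, 239 and 59 with A485. Srd5a1 and Srd5a3, of the steroid 5-alpha-reductase family, rose by 2.47 ± 0.58 and 2.27 ± 0.31 on the log2 scale (SE). Akr1c14, a 3-alpha-hydroxysteroid dehydrogenase gene, fell, averaging 3.19 ± 1.34 CPM in control and 0.215 ± 0.125 CPM with A485 (SD, n = 4 each). Hsd17b6 and Sult2b1 fell as well (log2 fold changes -2.01 ± 0.60 and -1.39 ± 0.18, SE).

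Among the carriers and partners of P450 enzymes, 6 of 12 rose and 4 fell (50% and 33.3%, against 29.7% and 25.0% of all genes). Cyp27a1, the mitochondrial sterol 27-hydroxylase that takes electrons from ferredoxin as Cyp11a1 does, had 3, 0, 2 and 0 counts in controls and 49, 75, 138 and 76 with A485 (log2 fold change 5.68 ± 0.72, SE; edgeR adjusted p = 0.000149). Cyb5a, encoding cytochrome b5, rose, averaging 79.2 ± 11.2 CPM in control and 584 ± 155 CPM with A485, and its reductase gene Cyb5r3 rose from a mean of 69.0 ± 15.7 to one of 312 ± 120 CPM (SD, n = 4 each). Pgrmc1, encoding a haem-binding partner of P450 enzymes, rose by 2.00 ± 0.23 on the log2 scale (SE). Fdx2, the ferredoxin of iron-sulfur cluster assembly, fell, with means of 69.7 ± 7.26 CPM in control and 30.5 ± 6.58 CPM with A485 (SD, n = 4 each). Mtrr, Cyb5r1 and Ndor1 fell with log2 fold changes of -1.71, -1.45 and -1.39.

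In the cholesterol supply list 10 of 21 rose and 3 fell (47.6% and 14.3%, against 29.7% and 25.0%). Tspo, a protein of the outer mitochondrial membrane long linked to steroid synthesis, rose from 10 to 34 counts in controls to 729 to 1481 with A485 (log2 fold change 5.14 ± 0.39, SE; edgeR adjusted p = 1.32e-05). Lipa, the lysosomal acid lipase that frees cholesterol from its esters, rose from 0 to 2 counts to 34 to 111, and Abcg1, a sterol exporter gene, rose by 2.85 ± 0.39 on the log2 scale (SE). Stard7 and Plin2 rose by 1.86 and 1.29 on the log2 scale, and leaving out A485 replicates 3 and 4 ended the call of Plin2 (log2 fold change 0.69, edgeR adjusted p = 0.15). The genes that fell include Stard4, a soluble sterol carrier, and Npc2, a lysosomal cholesterol-binding protein (log2 fold changes -1.47 ± 0.19 and -0.83 ± 0.13, SE). Scarb1, the receptor for high-density lipoprotein, did not pass (log2 fold change 0.56 ± 0.31, SE; edgeR adjusted p = 0.15), but did when A485 replicate 1 was left out (0.79, edgeR adjusted p = 0.011).

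Of 20 regulators tested 8 rose and 6 fell (40.0% and 30.0%, against 29.7% and 25.0% of all genes). Prkaca, the catalytic subunit of the cAMP-dependent kinase that relays trophic hormone signals to Star, rose, averaging 0.921 ± 0.292 CPM in control and 21.5 ± 5.27 CPM with A485 (SD, n = 4 each). Pde8a, a cAMP phosphodiesterase gene, Cited2, which binds p300/CBP, and Creb1 rose with log2 fold changes of 3.13, 2.19 and 1.42. Nr4a1 and Nr4a2, receptor genes induced by those hormones, fell (log2 fold changes -1.96 ± 0.27 and -2.13 ± 0.41, SE). Gata6 fell (log2 fold change -1.59 ± 0.39, SE), while its relative Gata4 did not pass (1.33 ± 0.53, SE; edgeR adjusted p = 0.054). Gata4 passed in 7 of 18 alternatives, among them total-count scaling (edgeR adjusted p = 0.026) and leaving out control replicate 1, A485 replicate 3 or A485 replicate 4 (edgeR adjusted p between 0.0196 and 0.0474). Sox9 fell (log2 fold change -1.32 ± 0.49, SE), a call that 10 of 18 alternatives ended, among them leaving out control replicate 1, 2 or 4 or A485 replicate 1, 2 or 3. Nr0b1, which represses Nr5a1, had 1, 0, 17 and 5 counts in controls and 0 in every A485 library.

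**Figure D3:**
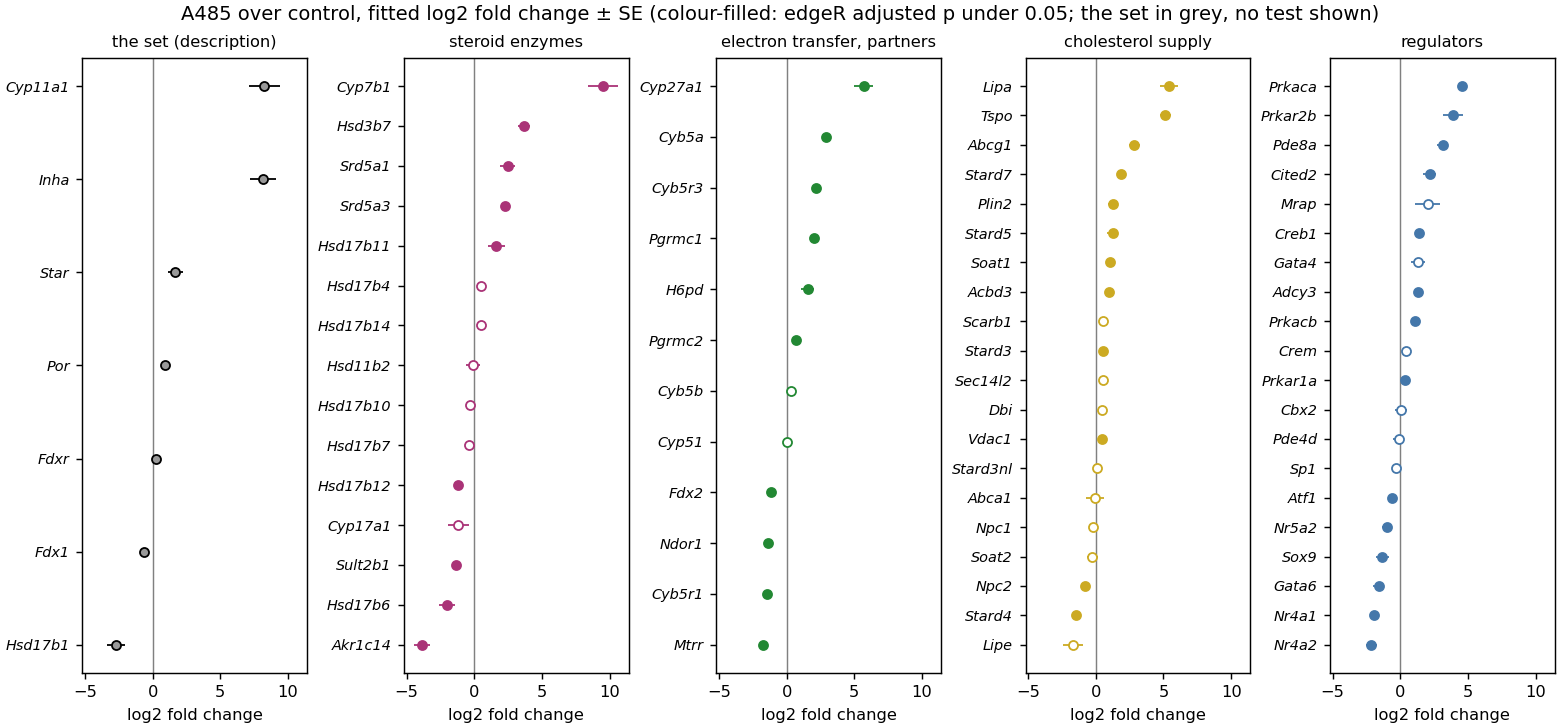
Fitted log2 fold change of A485 over control ± SE for the tested genes of the set (grey, no test shown) and of 4 pathway lists (1 gene of the cholesterol supply list is not shown), where colour-filled points passed an edgeR adjusted p of 0.05 and open points did not. Cyp11a1 and Inha lie at 8.26 and 8.18, Cyp7b1 at 9.53, and each list holds genes on both sides of 0. The fitted values of Inha and Cyp7b1, at 0 counts in control, depend on the prior count and are no bound.

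Ovarian follicle cells make steroids, and their markers were read beside the set. Of the 6 defining granulosa genes, 5 had at most 9 counts in any library, and Amhr2 had more. Foxl2, the transcription factor of granulosa cells, had 1, 0, 0 and 0 counts in controls and 5, 1, 9 and 3 with A485. Fshr, the receptor for follicle-stimulating hormone, had 0 counts in every control and 2, 0, 0 and 0 with A485. Amh had 0 or 1 count in every library, and Esr2 had at most 6 counts, in control replicate 3. Without Amhr2, the defining granulosa genes, Cyp19a1 included, summed to 1 to 6 counts in controls and to 11, 2, 12 and 5 in A485 replicates 1 to 4. Amhr2, the receptor for anti-Müllerian hormone, was present at 519 to 921 counts in controls and 616 to 1267 with A485 (log2 fold change 0.24 ± 0.26, SE; edgeR adjusted p = 0.46).

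Lhcgr, the receptor for luteinizing hormone, had 0 counts in every control and 7, 6, 2 and 0 with A485, and Insl3, a theca and Leydig cell hormone gene, had 1 count in each control and 13, 4, 12 and 0. The 34 follicle markers that did not pass the filter were mostly higher with A485: 31 had more counts there, and their summed counts were 43, 40, 35 and 26 in controls and 162, 159, 400 and 130 with A485, highest in replicate 3. For 5 of the 34, named after their values were seen, every A485 library was above every control. Shares over all genes that did not pass the filter were not computed, so nothing is read from the 31 or the 5. Adamts1, a protease of the ovulating follicle, had 1, 3, 2 and 2 counts in controls and 7, 25, 50 and 67 with A485. Vcan, a matrix gene of cumulus cells, had 0 in every control and 8, 3, 45 and 8 with A485, and Tnfaip6, which cross-links that matrix, had 2, 0, 0 and 0 in controls and 3, 8, 45 and 3. Sfrp4 and Ptgs2 had 0 in every control and 10, 8, 24 and 1, and 3, 1, 15 and 5, with A485. Of the 52 granulosa, cumulus, theca and luteal markers 51 were found and 17 tested, of which 6 rose and 4 fell (35.3% and 23.5%, against 29.7% and 25.0% of all genes), with a median log2 fold change of -0.05 against 0.09. DESeq2 called 13 of the markers higher and edgeR without a filter 12, both of which test genes that the filter removes. Over all 18237 genes these settings called 4510 and 4081 higher. The summed level of the markers was 709.5 to 988.8 CPM in controls and 260.0 to 655.5 CPM with A485, a sum in which Gja1, at 11362 to 18505 counts, weighs most in controls. The markers that rose include Slc38a3, Parm1, Serpine2 and Bex4, with log2 fold changes of 4.53, 3.57, 2.09 and 1.11. Serpine2 reached 15102 counts in A485 replicate 3 against 2364 to 3748 in the other A485 libraries, and its call ended without replicates 3 and 4 (edgeR adjusted p = 0.0504). Those that fell were Enpep, Gja1, Hmga2 and Nr5a2, with log2 fold changes of -4.02, -3.51, -2.63 and -1.01.

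Trophoblast markers changed in both directions. Of 40 named 32 were found and 27 tested, of which 15 rose and 7 fell (55.6% and 25.9%, against 29.7% and 25.0% of all genes), with a median log2 fold change of 1.35 against 0.09 for all genes. Their summed level was 1568 to 1876 CPM in controls and 2339 to 5094 CPM with A485. The keratin genes Krt8 and Krt18, named after their values were seen, weigh most in that sum. With A485 they were at 656 to 1734 and 649 to 1570 CPM. The 6 defining trophoblast genes found (Cdx2, Eomes, Elf5, Hand1, Gcm1 and Prl3b1) summed to a like level in both groups. It was 99.1 to 146.3 CPM in controls and 102.4 to 150.0 CPM with A485. Hand1, a factor required for trophoblast giant cells, rose, averaging 40.2 ± 8.32 CPM in control and 109.6 ± 21.7 CPM with A485 (SD, n = 4 each), and Eomes rose by 1.35 ± 0.37 on the log2 scale (SE). Rhox6, Dlx3, Ascl2, Plac1 and Flt1, genes of the placental lineage, rose from control means of at most 2.32 CPM, with log2 fold changes of 5.67, 5.43, 5.27, 4.80 and 4.77. Cdx2 and Gata3, early trophectoderm factors, fell (log2 fold changes -4.71 ± 0.51 and -2.40 ± 0.27, SE), as did Esrrb and Tfap2c (-2.97 and -1.77). Prl3b1, a placental lactogen gene, fell from 345 to 958 counts in controls to 28, 0, 9 and 30 with A485. Elf5 did not pass (log2 fold change 0.98 ± 0.65, SE; edgeR adjusted p = 0.22), and Gcm1 had 0 or 1 count in controls and 0, 5, 15 and 8 with A485. Tpbpa and Prl3d1 were not analysed here. Plac1 had 181, 1122, 2838 and 3103 counts in A485 replicates 1 to 4, low in replicate 1 like Cyp11a1. The part of trophoblast cells or of follicle cells in the appearance of the steroidogenic genes was not tested.

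**Figure D4:**
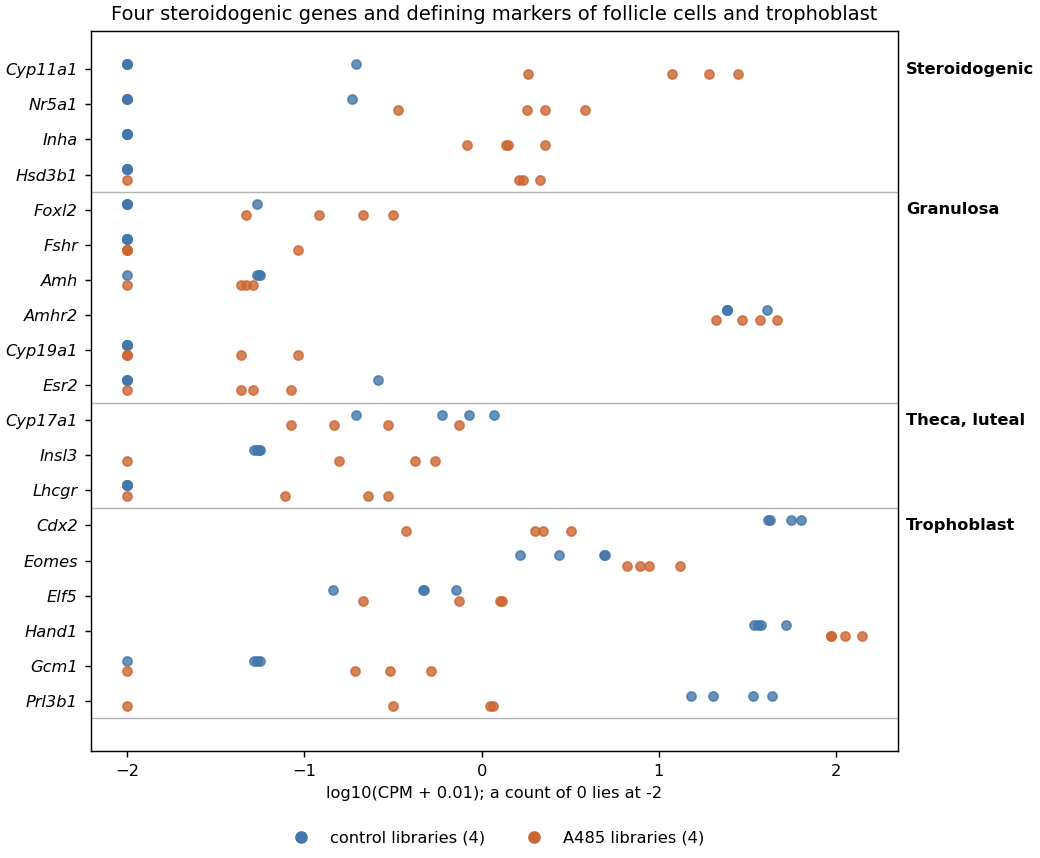
Level of 4 genes of the set and of defining markers of granulosa, theca and luteal cells and trophoblast in each library, as log10(CPM + 0.01), where a count of 0 lies at -2. Foxl2, Fshr, Amh, Cyp19a1 and Esr2 have at most 9 counts in any library, Hand1 and Eomes are higher and Cdx2 and Prl3b1 lower in every A485 library.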

How the data were processed

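RNA of 8 libraries was measured as 1 table. HISAT2 2.2.1 and RSEM 1.2.28, with DESeq2 1.40.2 and the build GRCm38.p6, are listed in the submitters' processing notes. Per the file headers, the authors deposited an estimated count per gene and library (18.2% of values not whole, by over 0.001), a TPM value, an FPKM value and a normalized count, here called a scaled signal. The sources used here do not state whether counting used strand.

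Estimated counts were rounded. Under R 4.3.3, edgeR 4.0.16 fitted A485 against control by its robust quasi-likelihood test after filterByExpr and TMM scaling, and p-values were adjusted over 12936 genes (Benjamini-Hochberg). Standard errors are log2 fold change over the root of F. CPM uses TMM-scaled library sizes, and log2 CPM a prior count of 2. The deposited TPM entered only levels compared between genes. FPKM and scaled signal of the authors were not used. Exact counting intervals (95%) used scipy 1.17.1.

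The genes of the set, the lists and the naming rule were chosen with earlier results of these data known. The rule names the set, defining markers, fixed pathway genes, the 5 genes of largest change per direction and list with at least 1 CPM in a group, and the 5 profiles nearest Cyp11a1. Genes in observations outside it are marked, and 1 gene it names is not reported here. Neighbours within 5000 bases were found by position in RefSeq's gene table. Alternatives were DESeq2 1.42.0, limma-voom (3.58.1), RLE, upper-quartile and total-count scaling, no filter, at least 5 CPM in 4 libraries, dispersion without the robust option, blocking on replicate number, and leaving out each library, A485 replicates 1 and 2, or 3 and 4. The code was tested on simulated data.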

Additional observations from a re-analysis of the deposited data

Results flagged for a closer look

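Among the 16 groups of CPM values of the 9 genes that were not all 0, 3 had a library far from the other 3 of its group. Chance gives about 1 in 20 groups of continuous values, but in 2 of the 3 a single library held every count, so that the gap equals the whole range. Cyp11a1 was at 0.186 CPM (4 counts) in control replicate 4 and at 0 in the other controls. Nr5a1 was at 0.176 CPM (4 counts) in control replicate 1 and at 0 in the other controls. Fdx1 was at 105 CPM in A485 replicate 1 and at 59.6 to 67.3 CPM in the other A485 libraries.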

How the results depend on the processing

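Cyp11a1, Inha, Hsd17b1 and Por kept their direction and their side of the threshold under each alternative that tested them (18, 18, 18 and 19 alternatives). Star lost its call in 6 of 18 and Fdx1 in 6 of 19. The genes of the set were chosen on this contrast, which partly fixes these calls, so nothing is read from them. Fdxr reversed from 0.27 to -0.158 on the log2 scale without A485 replicates 3 and 4, and Amhr2 from 0.24 to -0.186 without A485 replicates 1 and 2. With 5 CPM in 4 libraries, which tests fewer genes (8194), 2526 genes were higher, 18 other pathway genes and 2 follicle markers were higher, and 1 gene of the set was. DESeq2 called 13 follicle markers higher and edgeR without a filter 12, where over all genes they called 4510 and 4081 higher. Leaving out single libraries or A485 replicates 1 and 2, or 3 and 4, gave 24 to 32 pathway genes higher and 14 to 21 lower. Follicle markers higher and lower numbered 5 to 8 and 3 to 5, and trophoblast markers 14 to 16 and 7 to 9. Of the set, 3 to 6 genes were higher. Over all 13106 to 13701 genes tested in these fits, 3469 to 4292 were higher and 2784 to 3782 lower. How many list genes each fit tested is not given here, so nothing is read from these ranges. No pairing by replicate number was seen: the correlation of deviations between same-numbered libraries was 0.0051, 0.0137, 0.104 and 0.0672. Between differently numbered libraries it ran from -0.127 to 0.143. With deviations centred within each group, this check cannot show that the libraries were unpaired. With the replicate block 3508 genes were higher and 3163 lower, 27 and 17 pathway genes, and 3 genes of the set were higher, Star losing its call. Depth limits genes at or under 3 counts, or 0.102 to 0.139 CPM, which cannot be told from 0.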

Other observations

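Of 9 oocyte genes tested 4 rose, 0 fell and 5 did not pass (44.4% higher and 0.0% lower, against 29.7% and 25.0% of all genes). Kit, a receptor of germ cells, rose (log2 fold change 2.16 ± 0.63, SE; edgeR adjusted p = 0.0147), a call that ended without A485 replicate 3 (1.59, edgeR adjusted p = 0.0501). H1f8 rose close to the threshold (log2 fold change 1.17, edgeR adjusted p = 0.0486), and 11 of 18 alternatives ended that call. Figla, named after its values were seen, was near the threshold as well (edgeR adjusted p = 0.0402). Nobox and Mos, chosen after their values were seen, had 0 counts in every control library. Nobox, a transcription factor of the oocyte, had 4, 129, 116 and 18 counts in A485 replicates 1 to 4, lowest in replicate 1 like Nr5a1 but low in replicate 4 too. Mos, the oocyte kinase, had 13, 21, 52 and 18. The zona pellucida gene Zp2, chosen in the same way, had 1 to 4 counts in controls and 27, 17, 11 and 6 with A485. Other genes of the list, also named after their values were seen, include ones that did not rise. Zp3, Gdf9, Oosp1, Nlrp5 and Oog1 did not pass. Of those not tested, Bmp15 and Oosp2 had 13 and 7 counts over the controls and 10 and 7 with A485. Zp1 and Zar1, not tested either, had 7 and 4 counts over the controls and 73 and 57 with A485.

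Of 3 oviduct and blood genes tested 2 rose and 1 fell, where 29.7% and 25.0% of all genes did. Hba-a1, an alpha-globin gene of red blood cells, rose from 180 to 376 counts in controls to 3083, 2750, 9656 and 4245 with A485 (log2 fold change 3.86 ± 0.42, SE; edgeR adjusted p = 8.13e-05). The beta-globin gene Hbb-bs, chosen after its values were seen, had at most 2 counts in any library. Cd68, a macrophage and lysosome gene, rose (log2 fold change 1.55, edgeR adjusted p = 0.00103). Ptprc, which marks blood cells and was chosen after its values were seen, had at most 5 counts in any library.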
